A study of Mus musculus with 12 samples.

Results

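The comparison set the double lesion against the sum of its single lesions, gene by gene, in mouse hematopoietic stem and progenitor cells (HSPCs). For each gene, the log2 fold changes of the Smc3 and the Npm1 group against WT were added, and the sum was subtracted from the log2 fold change of the Double group against WT. A result of 0 means that the lesions add on the log2 scale, a positive value that the Double group lay above the sum and a negative value that it lay below. A gene was a member when its mean of normalized counts reached 50 in all 3 of the authors' deposited tables, with 1 transcript kept per symbol, the one with the highest mean. This gave 10718 members of 24016 genes, and 10693 members had a p in all 3 tables and were tested.

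The study read RNA from lineage-depleted HSPCs of C57BL/6 mice in 12 libraries, 3 in each of 4 groups that the labels call WT, Smc3, Npm1 and Double. Mice of all 4 groups, WT included, had received pIpC (poly(I:C), an inducer of interferon and of the Mx1-Cre recombinase where that transgene is present) at 4 to 6 weeks of age, in 7 doses of a 1 mg/mL solution, and cells were taken 4 to 6 weeks after treatment. The labels name no allele, no Cre driver and no sex, and separate mice for each library are not stated, so the p-values measure only the spread between these libraries. The deposited tables hold fold changes, standard errors and a mean over the 6 libraries of each comparison, with no value per library, so levels are given below by group.

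Additivity on a log scale is the usual null model for a pair of genetic lesions. If each lesion multiplies a transcript's level by its own factor, the cells with both carry the product, and a departure from it is called an interaction or epistasis. Smc3 belongs to cohesin, a ring-shaped complex that pairs sister chromatids and folds chromatin into loops. Npm1 is a nucleolar chaperone, and its mutated cytoplasmic form is a frequent lesion of acute myeloid leukaemia (AML) that goes with high expression of HoxA genes. The series title concerns DOCK1, an activator of Rac GTPases, and RAC2, the Rac GTPase of blood cells, in AML that carries NPM1 and cohesin mutations.

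The libraries held 10.2 to 51.6 M reads on the kept transcripts, as far as depth could be read from the tables, with 10.2 to 22.0 M in WT libraries and 27.8 to 35.4 M in Double libraries. Progenitor markers were abundant (the mean of Kit, the stem cell factor receptor, was 6073 to 8121 normalized counts in the authors' deposited tables), and the T cell markers Cd3e, Cd8a and Cd4 had means of 11.9 to 27.7. Col1a1, a collagen of stromal cells, had means of 1481 to 2239 in the authors' deposited tables, so RNA of stromal cells was present. The Y-linked gene Ddx3y had a mean of 852 in the Smc3 table and 1016 in the Double table against 1.76 in the Npm1 table of the authors' deposited tables. Each mean includes the WT libraries, so Y-linked RNA was nearly absent from WT and Npm1 and came from the Smc3 and Double groups. The sexes of the mice were thus not balanced over the groups, and sex and genotype cannot be told apart for any gene that responds to sex. Whether every library of Smc3 and Double held Y-linked RNA cannot be read from such means.

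No gene passed the test for a departure from the sum after correction. Of the 10693 tested members, 0 (0%) passed an adjusted p of 0.05 (normal z test on the authors' deposited DESeq2 fold changes, Benjamini-Hochberg adjustment over 18147 genes), and the smallest adjusted p was 0.113, for Spon2. At an unadjusted p under 0.05 there were 239 members (2.24%), of which 161 (1.51%) lay above the sum and 78 (0.729%) below it. The standard error adds the variance of all 3 comparisons and so counts the WT libraries 3 times, which makes the test strict. To count the WT variance once, the summed variance of every gene was multiplied by 2/3, which assumes an equal variance in all 4 groups. That assumption was not tested. The deposited standard errors of Egr1 were unequal, at 0.245 in Smc3, 0.149 in Npm1 and 0.235 in Double. With the WT variance so counted, 4 members (0.0374%) passed the adjusted threshold, Egr1 and Serpina3f above the sum and Spon2 and AA465934 below it. An unadjusted p under 0.05 was then found for 671 members (6.28%), 396 (3.7%) above the sum and 275 (2.57%) below. The genes named below from these lists of small unadjusted p are therefore descriptions, not calls.

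The moderated departures were small for most genes. Their median was -0.04 on the log2 scale, with 5th and 95th percentiles of -0.32 and 0.44 and a median standard error of 0.22. For 9692 members (90.6%) the whole 95% interval from the moderated values lay within 1 log2 unit of the sum, and for 3599 (33.7%) within 0.5. Moderation pulls the fold changes of noisy genes towards 0 and limits their standard errors. These shares were therefore partly set by the moderation and are no measure of additivity. A departure of at least 1 was estimated for 17 members, 12 above and 5 below, from the moderated fold changes of the deposited tables, and for 86 above and 11 below once the moderation was undone. Of all tested members 41.4% lay above the sum and 58.6% below it, and list counts are to be read against these shares. Genes near the threshold on the mean spread more widely than the rest: the 100 genes just inside it, with a smallest mean of up to 54.7, had a departure SD of 0.299, and the 100 just outside, at 46.0 and more, had 0.354. Double was nearer to Smc3 than to Npm1 in fold change for 7839 of the members (73.3%). Smc3 and Double are also the groups with Y-linked RNA, and the part of sex in this share was not tested.

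**Figure D1:**
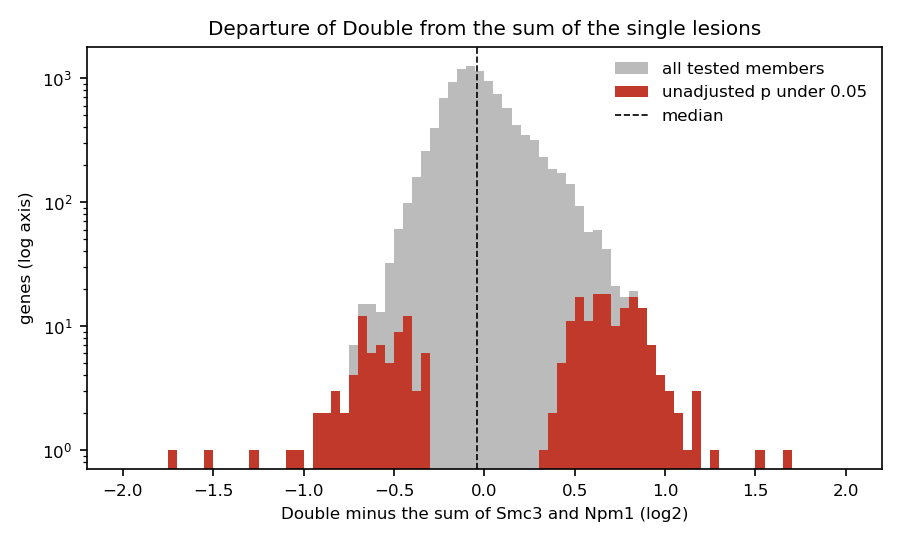
Number of tested members (log axis) by the departure of the Double group from the sum of the Smc3 and Npm1 groups, in log2 units and bins of 0.05. Grey bars are all 10693 tested members, red bars the 239 with an unadjusted p under 0.05, and the dashed line is the median of -0.04; 161 red genes lie to the right and 78 to the left.

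The lean of the small p-values towards the upper side depended on the scale. Among the 161 members above the sum, both single lesions were below WT for 82, with medians of -0.37 for Smc3 and -0.72 for Npm1. Double stood at a median of -0.31 in these genes. Smc3 was above WT and Npm1 below it for 76, with medians of 0.31 and -0.64, and the Double median was 0.31. Among the 78 below the sum, Smc3 was below and Npm1 above WT for 44, and both were above WT for 27. Over all 10693 tested members, these sign classes held 2077, 2676, 3717 and 2223 genes, in the order given. The 161 and the 78 were selected by their departure, so the gap between Double and the sum follows from the selection. The same selection favours single-lesion values whose sum lies far from Double, so these class counts and medians are descriptions only. When effects were added on the linear scale of levels, 57 members (0.533%) lay above the sum and 148 (1.38%) below at an unadjusted p under 0.05, so the split turned from 67.4% above to 27.8% above.

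The immediate early genes had the highest median of the 35 gene lists examined. These genes, among them the AP-1 subunits Fos, Fosb, Jun, Junb and Jund and the zinc-finger factor Egr1, are transcribed within minutes of a growth factor or stress signal without new protein synthesis. Of 23 tested members, 22 lay above the sum and 12 had an unadjusted p under 0.05 there, against 1.51% of all members, with a median departure of 0.73 beside -0.04 overall. Their WT levels were the highest of the 4 groups for 20 of the 23. Over all 10693 tested members, both single lesions were below WT for 2077 (19.4%), so WT was the highest group for at most that share. WT stands with the opposite sign in each of the 3 fold changes, so a shift of the WT libraries alone moves the departure by its own size, and such a shift and an interaction of the lesions cannot be told apart here.

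The promoters of 3 of these genes are printed for the cyclic AMP response element (CRE, TGACGTCA) and its half-site (TGACG, or CGTCA on the other strand), through which CREB and ATF factors act on many immediate early genes. They are RefSeq promoters on GRCm38.p6, the 150 bases before the annotated start, read 5′ to 3′ on the gene's strand, with matches in capitals.
Fosb, chr7:19310046-19310195 on the minus strand: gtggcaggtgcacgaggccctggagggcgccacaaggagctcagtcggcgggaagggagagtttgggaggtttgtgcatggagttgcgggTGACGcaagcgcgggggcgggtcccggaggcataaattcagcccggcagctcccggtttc
Dusp1, chr17:26508473-26508622 on the minus strand: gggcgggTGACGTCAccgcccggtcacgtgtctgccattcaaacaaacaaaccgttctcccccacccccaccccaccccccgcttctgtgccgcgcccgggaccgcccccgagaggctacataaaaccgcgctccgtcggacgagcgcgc
Maff, chr15:79347370-79347519 on the plus strand, 1 of 3 listed starts: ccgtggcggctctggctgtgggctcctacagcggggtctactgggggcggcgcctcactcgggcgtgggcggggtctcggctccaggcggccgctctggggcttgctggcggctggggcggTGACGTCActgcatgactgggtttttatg
The genes were picked to show a half-site and a full element, so they are no sample of the list. Over all RefSeq promoters of this length, counting the first listed start of each gene, which for Maff is not the one printed, 3640 of 27025 (13.5%) held a half-site, against 1852 of 8175 members (22.7%) and 7 of the 19 immediate early genes that had a promoter in the table. The full CRE stood in 1.44% of all promoters, 2.68% of members and 1 of the 19 genes. The CArG box, the site of serum response factor, stood in 0.884%, 0.636% and 2 of the 19. The matches overlap, since a full CRE holds both half-sites, and a match says only that these letters are in the window.

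Egr1 had 8180 normalized counts in WT, 2915 in Smc3, 3091 in Npm1 and 2993 in Double. By these levels the 3 mutant groups were alike and lay at a similar distance below WT. The Smc3 and Double levels of Egr1 rest on the less certain of 2 solutions for the unmoderated fold change, described below. In Double it was -1.45, in place of -0.40 in the authors' deposited tables. The Egr1 departure was 1.51 ± 0.37 (SE). It had an unadjusted p of 4.83e-05 and an adjusted p of 0.292 by the z test on the DESeq2 fold changes. Fosb, whose promoter above carries 1 half-site, had 9692 in WT, 3628 in Smc3, 5630 in Npm1 and 5385 in Double, a departure of 1.16 ± 0.39. Here Smc3 was the lowest group and Double stood at the Npm1 level. Jund, a broadly expressed AP-1 subunit, had 8230, 3635, 4060 and 3658 in the same order (1.05 ± 0.40), and Jun had 20217, 10528, 10061 and 11446. Maff, a small Maf factor that lacks an activation domain, had 213 in WT, 69.1 in Smc3, 107 in Npm1 and 90.8 in Double, a departure of 1.26 ± 0.40. In all of these genes WT was the highest group.

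The error of these genes was larger than the deposited standard errors show. DESeq2 pulls fold changes of noisy genes towards 0 and reports the standard error of the moderated value. Fold changes without that pull were recovered from the tables, and with them the Egr1 departure was 1.44 ± 1.03 and the Fosb departure 1.35 ± 0.79. The list's median rose from 0.73 to 1.03, but 0 of its 23 members had an unadjusted p under 0.05, where the background was 1.35% of members above the sum and 0.617% below. Its Smc3, Npm1 and Double medians against WT were -0.94, -0.78 and -0.78 on this scale. With effects added on the linear scale, the median was 0.88 and 4 of the 23 had an unadjusted p under 0.05 above the sum.

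**Figure D2:**
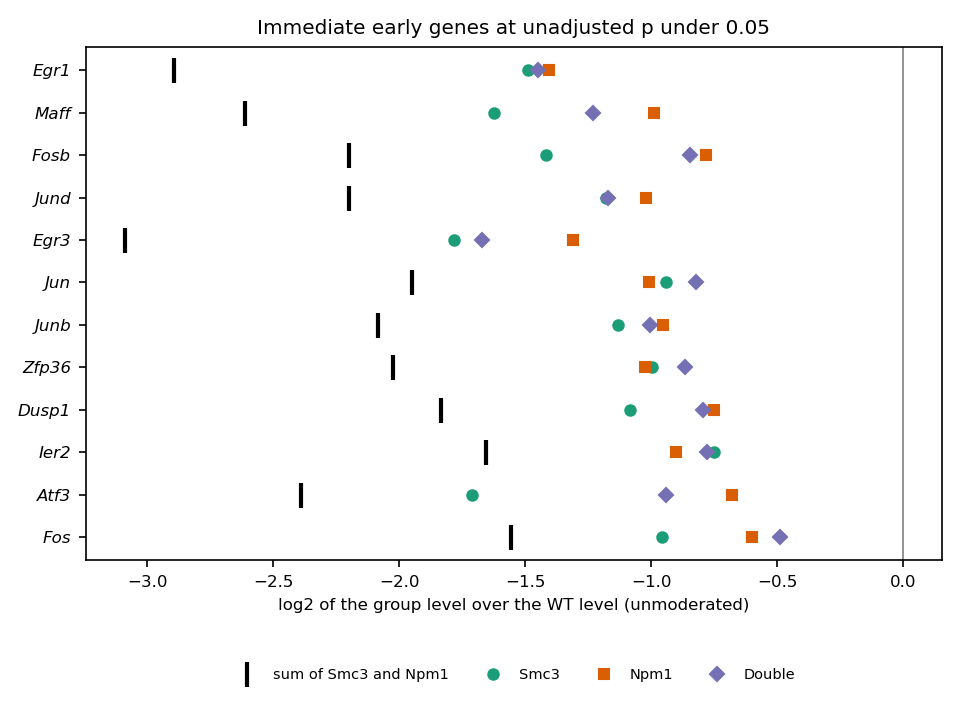
Unmoderated log2 ratio of each group's level to the WT level for the 12 immediate early genes with an unadjusted p under 0.05, with circles for Smc3, squares for Npm1, diamonds for Double and a black bar for the sum of both single lesions. Double lies near the single lesions and to the right of the sum in each of the 12 genes, as for Egr1, where the sum lies 1.44 below Double.

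Of the MAPK feedback genes, which damp the same signals, 9 of 12 also had their highest level in WT, beside at most 19.4% of all tested members. Dusp1, a phosphatase that switches off MAP kinases and whose promoter holds a full CRE, had 4525 normalized counts in WT, 2132 in Smc3, 2690 in Npm1 and 2610 in Double (departure 0.88 ± 0.39). Dusp5, a phosphatase of nuclear ERK, had 403, 174, 178 and 174. The list had 9 members above the sum, 4 of them at an unadjusted p under 0.05 (1 unmoderated), with a median of 0.50, and Dusp1 stands in both lists. Socs3, the inhibitor of JAK kinases, had 262 in WT, 115 in Smc3, 112 in Npm1 and 146 in Double (1.18 ± 0.39). Smad7, which blocks TGF-beta receptors, had 941, 377, 521 and 462 (1.03 ± 0.33, unadjusted p = 0.00187), and its unmoderated departure was 1.14 ± 0.41. Id3, an inhibitor of basic helix-loop-helix factors induced by BMP signals, had 110 in WT and 19.8, 40.7 and 20.3 in the other groups. The TGF-beta and BMP feedback list as a whole had a median of 0.15, with 3 of 14 members above the sum at an unadjusted p under 0.05, and the same number on the unmoderated scale.

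The NF-kappaB and cytokine genes had a median departure of 0.41, with 18 of 23 above the sum and 3 at an unadjusted p under 0.05 (1 unmoderated). WT was the highest group for 12 of the 23, beside at most 19.4% of all tested members. Rel, an NF-kappaB subunit, had 415 normalized counts in WT, 260 in Smc3, 189 in Npm1 and 334 in Double, a departure of 1.09 ± 0.37 (unadjusted p = 0.00284) and of 1.49 ± 0.48 unmoderated. Double lay above both single lesions, not at their level. Nfkbia, the inhibitor that NF-kappaB induces, had 5431, 2446, 3577 and 2822 in the order WT, Smc3, Npm1 and Double, which is the order of Fosb. Cebpb, a bZIP factor of myeloid and stress responses, was low in the Npm1 group alone, at 328 beside 880 in WT, 746 in Smc3 and 773 in Double (1.13 ± 0.39).

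A second pattern was a low level in Npm1 beside a level near that of Smc3 in Double. The primary granule genes, which encode the enzymes and regulators of promyelocytes, were above WT in Smc3, below WT in Npm1 and above WT in Double for 17 of 17 members, with medians of 0.60, -0.54 and 0.56 from the authors' deposited tables. All 17 lay above the sum, with a median of 0.49, and 3 of them had an unadjusted p under 0.05 (4 unmoderated). Elane, neutrophil elastase, had 8908 normalized counts in WT, 16069 in Smc3, 4885 in Npm1 and 16738 in Double, and its departure of 0.59 ± 0.35 had an unadjusted p of 0.0951. Mpo, myeloperoxidase, had 68486, 120142, 38451 and 105607, a departure of 0.30 ± 0.33. Hp, haptoglobin, had 1075, 1734, 570 and 1793, a departure of 0.80 ± 0.35 with an unadjusted p of 0.0223. In these 3 genes Double stood near Smc3 and well above Npm1. In bulk RNA, fewer cells of a type and less RNA per cell cannot be told apart. Smc3 and Double were also the groups with Y-linked RNA, and the part of sex was not tested.

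Other myeloid lists lay on the same side. Of 20 monocyte and dendritic cell genes 18 were above the sum, with a median of 0.35 and 0 at an unadjusted p under 0.05. Of 16 late neutrophil genes only 6 had a p in all tables, so their median of 0.41 does not describe the list. The basophil, mast cell and eosinophil genes, with medians of 0.86 in Smc3, -0.48 in Npm1 and 0.33 in Double from the authors' deposited tables, had a median departure of -0.00 over the 17 of 21 members that were tested, which became -0.24 unmoderated and -0.20 on the linear scale.

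Among the DOCK, ELMO and RAC genes, which switch on, carry or restrain Rac signals to the actin skeleton, 22 of 26 lay above the sum. Their median was 0.22. The list includes inhibitors of Rac such as Arhgdib (0.47 ± 0.25). For 19 of the 26 Smc3 was above and Npm1 below WT, as for 2676 of the 10693 tested members, and for 17 of these Double was above WT too. Dock1 had 297 normalized counts in WT, 407 in Smc3, 164 in Npm1 and 460 in Double. Double was the highest group, and the departure was 0.80 ± 0.35 (95% interval 0.11 to 1.49) with an unadjusted p of 0.0232 and an adjusted p of 1 by the z test on the DESeq2 fold changes. Elmo1, the scaffold that binds DOCK proteins, had 1289, 2028, 843 and 2057, a departure of 0.56 ± 0.29 with an unadjusted p of 0.0486. Rac2 had 4239 in WT, 5639 in Smc3, 2511 in Npm1 and 4562 in Double. The Double level lay between WT and Smc3, and the departure of 0.40 ± 0.25 had an unadjusted p of 0.108. The group pattern of these genes was that of the primary granule genes, which were present in the same libraries. It was not particular to them. It also held for 8 of 8 MHC class II genes, 22 of 27 cytokine receptor genes and 13 of 23 stem cell genes, but for 0 of 33 erythroid genes. The part of cell composition in it was not tested. With effects added on the linear scale, 0 primary granule genes and 0 DOCK, ELMO and RAC genes had an unadjusted p under 0.05 above the sum. Their medians on that scale were 0.28 for the granule genes and 0.14 for the DOCK, ELMO and RAC genes.

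**Figure D3:**
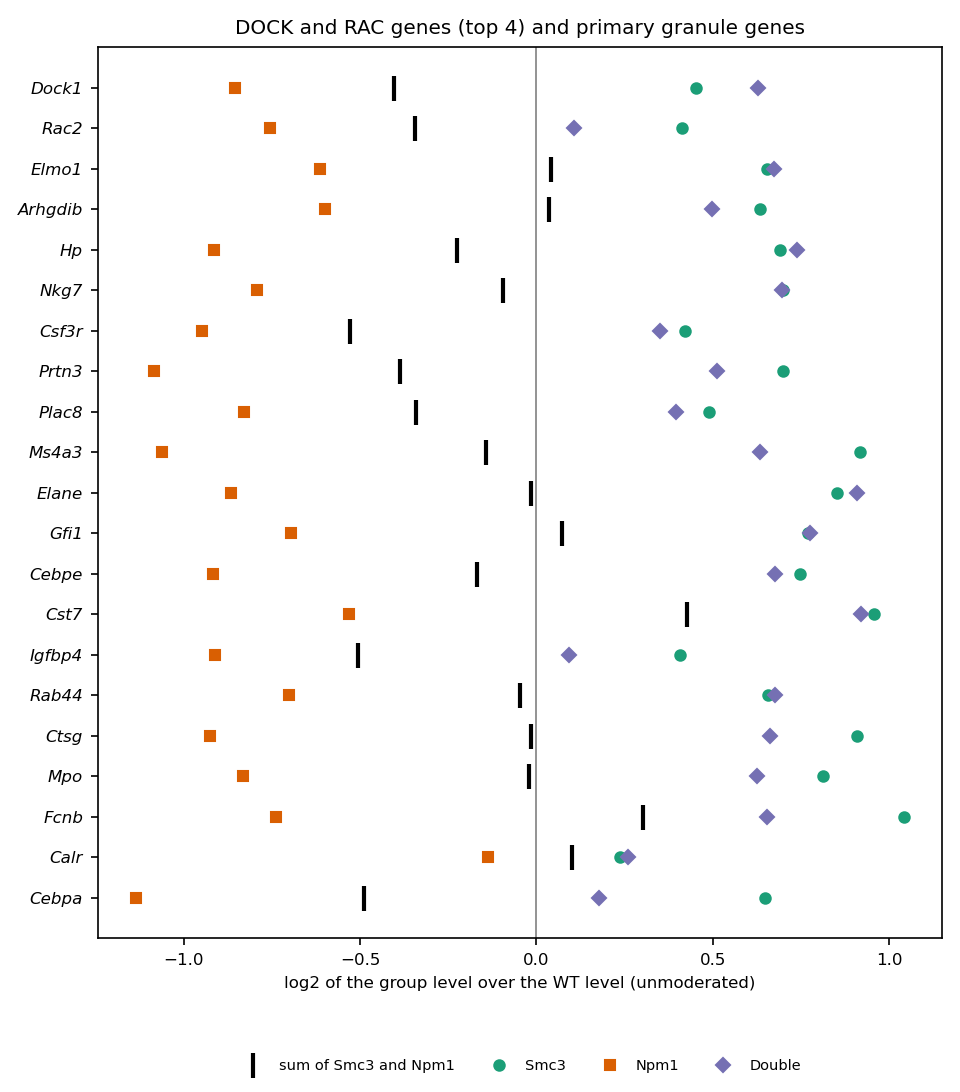
Unmoderated log2 ratio of each group's level to the WT level for 4 genes of the DOCK, ELMO and RAC list (Dock1, Rac2, Elmo1 and Arhgdib) and all 17 primary granule genes. Circles are Smc3, squares Npm1 and diamonds Double, and a black bar marks the sum of both single lesions. Npm1 lies to the left of 0 and Smc3 to the right in every gene shown, and Double lies on the Smc3 side, to the right of the bar, as for Elane.

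Serpina3f, an inhibitor of serine proteases in mouse blood cells, was the highest of all above the sum. It had 120 normalized counts in WT, 126 in Smc3, 29.2 in Npm1 and 211 in Double. Its departure was 1.66 ± 0.42, and 2.78 ± 0.74 unmoderated (unadjusted p of 7.35e-05 and 0.000178). Serpina3 genes are a cluster of close copies, so reads could be shared between them. Tmsb10, an actin-binding thymosin, was low in Npm1 alone, with 1349, 1513, 745 and 1631 (0.88 ± 0.26). Chd7, a chromatin remodeller, had 397 in WT, 569 in Smc3, 254 in Npm1 and 718 in Double (0.86 ± 0.30).

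Among glycolysis and hypoxia genes, 4 of 24 had an unadjusted p under 0.05 above the sum and 0 below, with a median of 0.16. Pkm, pyruvate kinase, had 5933 normalized counts in WT, 9324 in Smc3, 3055 in Npm1 and 8264 in Double (0.63 ± 0.30). Hk2, a hexokinase, had 1180, 1513, 769 and 1423 (0.50 ± 0.22), and the glucose transporter Slc2a1 had 241, 273, 118 and 267 (0.74 ± 0.35). These 3 followed the order of the granule genes. Vegfa, an angiogenic growth factor, had 640, 407, 443 and 478 (0.68 ± 0.25), with WT the highest group, as for the immediate early genes.

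On the log2 scale, fewer genes had a small unadjusted p below the sum. Spon2, a secreted matrix protein, had 516 normalized counts in WT, 263 in Smc3, 150 in Npm1 and 41.3 in Double. The Double level was far under each single lesion, and the departure was -1.71 ± 0.38 (95% interval -2.45 to -0.97, unadjusted p = 6.20e-06). Without moderation it was -0.89 ± 0.74, with an unadjusted p of 0.231. The Smc3 and Npm1 fold changes were then -0.97 and -1.78, in place of -0.68 and -0.66 in the authors' deposited tables, so the size of this departure depended on the moderation. Gpc4, a glypican of the cell surface, had 507 in WT, 283 in Smc3, 478 in Npm1 and 122 in Double (-0.85 ± 0.31, and -1.14 ± 0.36 unmoderated). Ltbp1, which stores latent TGF-beta in the matrix, had 160, 206, 207 and 80.1 (-1.27 ± 0.39, and -1.74 ± 0.55 unmoderated). Double alone was low for Ltbp1. Aldh1a1, an enzyme that makes retinoic acid, had 2874, 2472, 3890 and 1892 (-0.76 ± 0.27). AA465934, a non-coding transcript of the tables, went the other way, with 55.3 in WT and 190, 225 and 171 in the mutant groups (-1.52 ± 0.37).

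**Figure D4:**
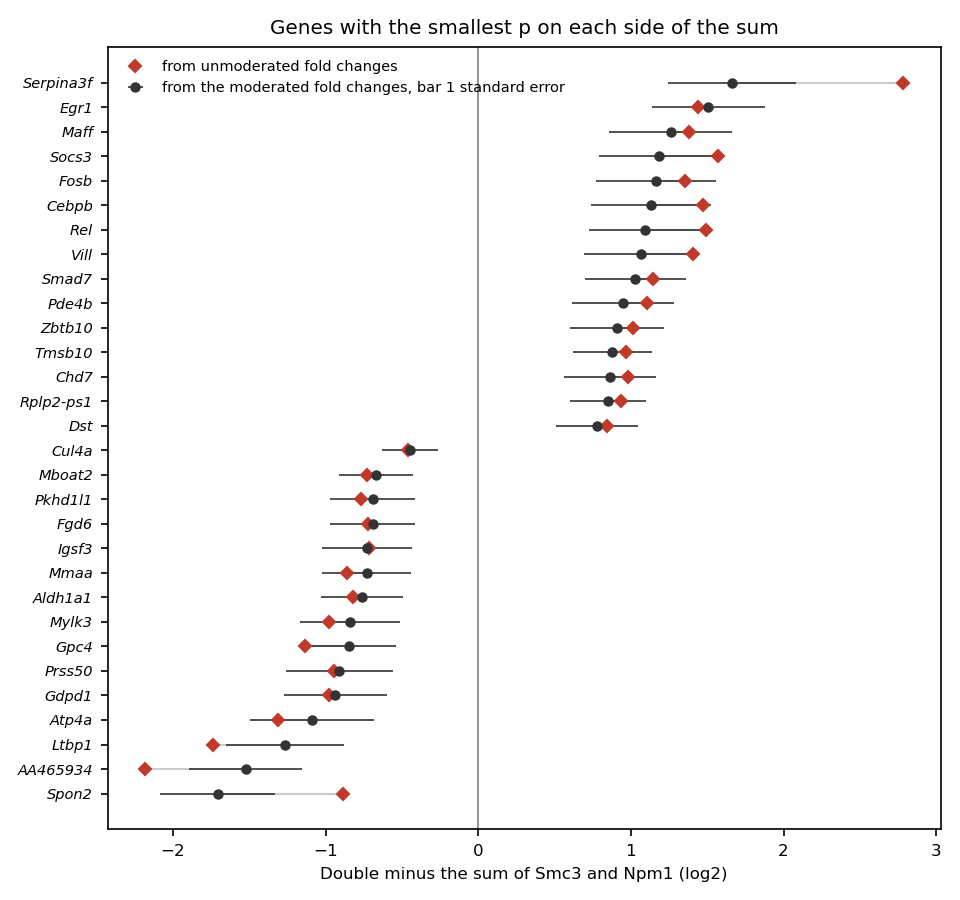
Departure of Double from the sum, in log2 units, for the 15 genes with the smallest p on each side of the sum, chosen after their values were seen. Black circles with bars of 1 standard error use the deposited moderated fold changes and red diamonds the unmoderated ones; Spon2 moves from -1.71 to -0.89 and Serpina3f from 1.66 to 2.78.

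The erythroid genes had a median of -0.23, with 24 of 33 below the sum, beside 58.6% of all tested members, and 2 at an unadjusted p under 0.05 there, against 0.729%. Genes of late red cells were among the 9 above it, such as Slc4a1, the anion exchanger of the red cell membrane (0.38 ± 0.32), and Alas2, the first enzyme of heme synthesis (0.12 ± 0.31). The 9 also held 3 pairs of globin copies with the same or nearly the same values, Hbb-b2 with Hbb-bt (0.53 ± 0.35), Hba-a1 with Hba-a2 (0.17 ± 0.29) and Hbb-b1 with Hbb-bs (0.08 ± 0.31), each pair being counted as 2 genes though the reads of such copies may be shared. Aqp1, the water channel of red cells, had 23510.1 normalized counts in WT, 18115 in Smc3, 28575 in Npm1 and 13661 in Double (-0.65 ± 0.27, unadjusted p = 0.0158). Rhag, a red cell membrane protein of the Rh complex, had 5067, 4548, 8910 and 5343 (-0.59 ± 0.28). The Npm1 level was the highest of the 4 groups in both, and Double stood near or below WT. Tfrc, the transferrin receptor, had 20344, 20385, 28323 and 17592 (-0.61 ± 0.33, unadjusted p = 0.0642). The high Npm1 level of these 3 genes was not that of the list. Its medians were -0.44 in Smc3, -0.05 in Npm1 and -0.64 in Double from the authors' deposited tables. WT was the highest group for 16 of the 33, beside at most 19.4% of all tested members. Cell cycle genes lay slightly under the sum, 31 of 34 S phase genes with a median of -0.09 and 29 of 30 G2 and M phase genes with a median of -0.14, and 0 of either had an unadjusted p under 0.05.

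The targeted genes were close to additive. Smc3 had 9466 normalized counts in WT, 9335 in Smc3, 10478 in Npm1 and 9292 in Double, so its transcript stood near the WT level in the groups named for it, and the departure was -0.14 ± 0.20. Npm1 had 30433, 25153, 36403 and 29025, a departure of -0.02 ± 0.25. All 15 tested cohesin genes lay below 0, with a median of -0.14, and 0 had an unadjusted p under 0.05. The labels do not say which part of either gene was altered, so the transcript levels do not check the genotypes.

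The HoxA genes stood at similar, high levels in Npm1 and Double. Hoxa9, a homeobox factor of stem cells and of NPM1-mutated AML, had 436 normalized counts in WT, 555 in Smc3, 1925 in Npm1 and 1879 in Double. The Double level was near that of Npm1, and the departure was -0.31 ± 0.23, with an unadjusted p of 0.182. The list kept 3 of its 11 genes at a mean of 50, all below the sum at -0.39 to -0.28. Hoxa10 was not a member, since its mean in the Smc3 comparison of the authors' deposited tables was 43.3. Meis1, the cofactor of Hox proteins, had 624, 731, 581 and 898 (0.35 ± 0.27), with Double the highest group.

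The p53 targets split. Cdkn1a, the p21 cell cycle inhibitor, had 439 normalized counts in WT, 381 in Smc3, 502 in Npm1 and 818 in Double, the highest group, a departure of 0.70 ± 0.34 with an unadjusted p of 0.0381 (0.91 ± 0.70 unmoderated). Ccng1, cyclin G1, had 2659, 3702, 7106 and 5520, a departure of -0.68 ± 0.30, so that Double lay between the single lesions. Of the 23 tested targets 3 lay above and 1 below the sum at an unadjusted p under 0.05, with a median of -0.00. The other genes above were Plk3 and Bbc3, which were highest in WT.

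The interferon response genes were highest in WT for 18 of 28 members, beside at most 19.4% of all tested members. Their medians were -0.19 in Smc3, -0.43 in Npm1 and -0.43 in Double from the authors' deposited tables, and their median departure was 0.10 with 1 of 28 at an unadjusted p under 0.05. That gene, Ifitm1, an interferon-induced membrane protein that restricts viruses, had 657 normalized counts in WT, 538 in Smc3, 138 in Npm1 and 208 in Double (0.77 ± 0.29). Isg15, a ubiquitin-like interferon product, had its levels in descending order of the same groups, at 169, 72.1, 39.4 and 26.1, and its departure of 0.71 ± 0.38 had an unadjusted p of 0.0632. Lists for ribosome biogenesis, Polycomb, lysosome and heat shock genes had medians of -0.04 to 0.01, at or near that of all members.

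**Figure D5:**
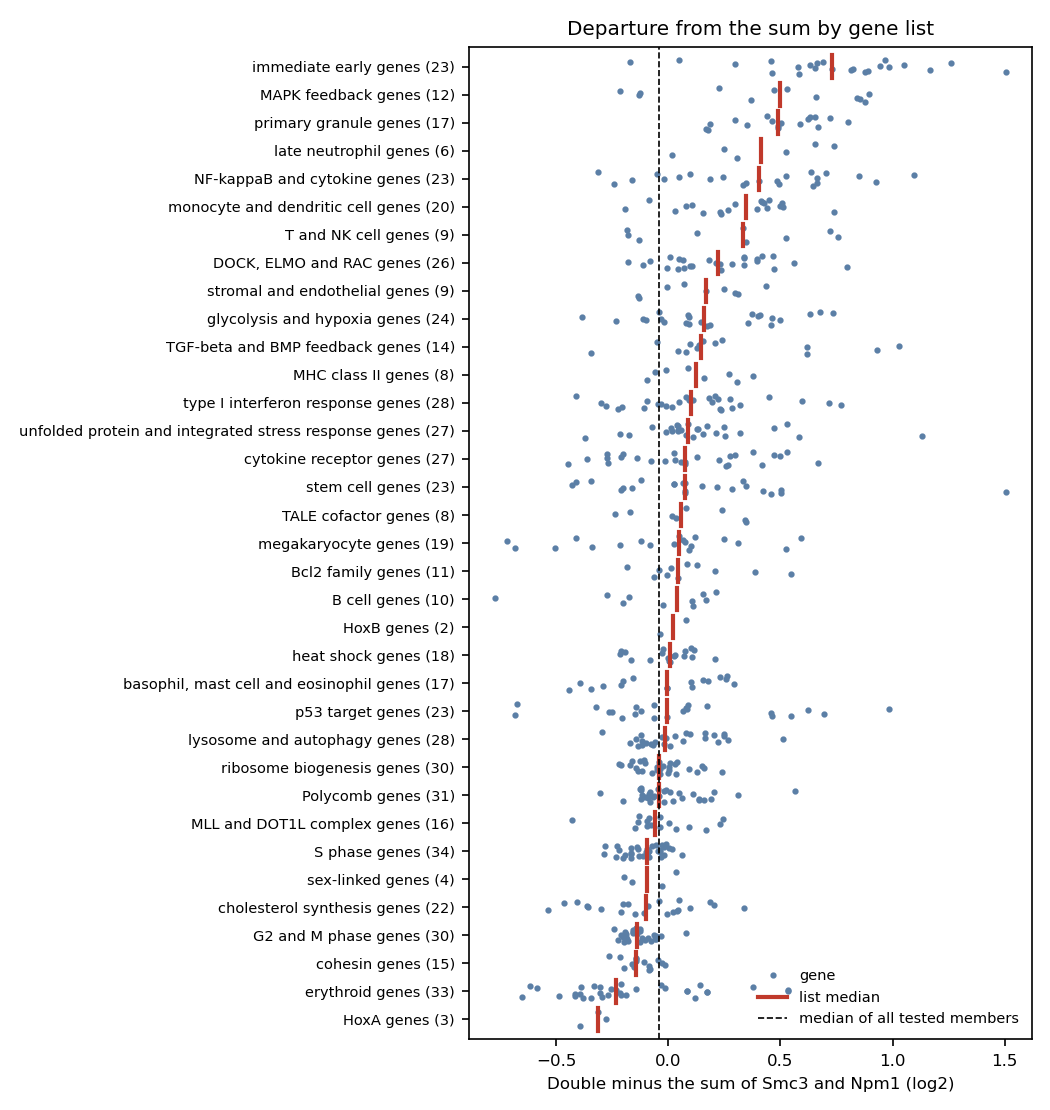
Departure of Double from the sum, in log2 units, for the tested genes of the 35 lists, sorted by list median. Blue points are genes, red bars list medians, and the dashed line is the median of all tested members, -0.04; the immediate early genes stand highest at 0.73 and the HoxA genes, with 3 members, lowest at -0.31.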

How the data were processed

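RNA-seq was made from poly(A) RNA with a kit that keeps no record of strand, per the labels' protocols. Reads were aligned with STAR to mouse build mm9 and compared with DESeq2, per the submitters' processing notes, with no version or counting tool named there. The authors deposited 3 tables, Smc3, Npm1 and Double each against WT, with 33018 RefSeq transcripts. Per the file headers, columns are a mean of normalized counts (signal, counts divided by size factors), a moderated log2 fold change with its standard error, a Wald statistic (a score) and p-values with adjusted p-values. Each table was normalized by itself and holds no value per library. Date-like symbols left by spreadsheet software, 53 in all, were restored through their RefSeq accessions.

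The departure of Double from the sum was put to a z test with a variance that was the sum of the 3 squared standard errors, adjusted by Benjamini-Hochberg over 18147 genes with a p in all tables (numpy 2.4.6, scipy 1.17.1, pandas 2.3.3, statsmodels 0.14.6). Unmoderated fold changes were solved from each fold change and its standard error, taking the prior width as 2 times the largest standard error (0.493, 0.476 and 0.526). Of the 2 solutions, the one was kept that gave the same WT level in all 3 tables, a choice made after the data were seen, and the log2 WT levels then had a median SD of 0.000934 between tables. The standard errors of these values grow with the moderation and were solved in the same way. Group levels are the authors' deposited means split by these fold changes, on the scale of the Smc3 table, so they carry no SD. For 204 members the less certain solution, with a standard error above the prior width, was taken in at least 1 table. Among them were Egr1 (in Smc3 and Double), Fosb, Jund and Maff (in Double), AA465934 (in Smc3) and Spon2 (in Npm1). Depth was read from the size factors behind the smallest deposited means, and it limits the precision of low genes.

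The members and the 35 gene lists were chosen with earlier results of these data known. Named genes were Smc3, Npm1, Dock1, Rac2, Hoxa9, Hoxa10, Meis1, Cdkn1a, the members of smallest p in each list (4 at most), and the 15 most positive and 15 most negative called genes, of which there were 0. The 15 genes of smallest p on each side, the call rule at an unadjusted p and any other gene named were chosen after their values were seen. Alternatives were unmoderated values, WT variance counted once, a linear scale, centred medians, other filters, another transcript per gene, adjustment over members and GC removal. 1 marker gene is not reported here.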

Additional observations from a re-analysis of the deposited data

How the results depend on the processing

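The count of 0 genes at an adjusted p under 0.05 moved to 4 with the WT variance counted once. Combinations chosen after seeing the data gave 2 (linear scale with WT variance counted once), 5 (the same, adjusted over members only), 1 (unmoderated, WT variance counted once, adjusted over members only: Serpina3f) and 1 (GC trend removed: Spon2). The count of 239 at an unadjusted p moved to 671 with the WT variance counted once, to 616 when this was joined to unmoderated values and to 580 when joined to the linear scale. No paired analysis was possible because the deposited tables hold no values per library, and leaving out a library could not be run for the same reason. Of 2361 pairs of a named gene and an alternative, 11 turned sign, in 5 of 160 genes, each with an unadjusted p above 0.05. These were Hoxb3 (0.0182) and Pcgf2 (-0.0462) on the linear scale, Il7r (0.12) unmoderated, and Eif2s3x (0.016) and Npm1 (0.0309) after GC removal, with the same values where these were joined to other settings. The cause was not tested. Of the calls these settings added, Egr1, Spon2 and AA465934 had unadjusted p of 0.161, 0.231 and 0.0891 with unmoderated values. Depth and 3 libraries a group limit the precision. At the median standard error of 0.22, the bar for an unadjusted p of 0.05 in the z test lies a little under a departure of 0.5. Smaller departures go undetected even there, and the adjusted threshold asks for larger ones. Spon2, at -1.71 ± 0.38 on the log2 scale, did not pass it in the main test.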

Other observations

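Megakaryocyte genes had departures on both sides of the sum. Ppbp, a platelet chemokine, had 35.1 normalized counts in WT, 76.6 in Smc3, 122 in Npm1 and 132 in Double (-0.72 ± 0.39, unadjusted p = 0.0626). Gp1ba, a subunit of the platelet receptor for von Willebrand factor, had 153, 235, 187 and 152 (-0.68 ± 0.34, unadjusted p = 0.0440), so each single lesion was above WT and Double stood at the WT level. Fli1, an ETS factor of this lineage, lay on the other side with 951, 1391, 597 and 1360 (0.52 ± 0.28, unadjusted p = 0.0604).

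Angpt1, a ligand of the Tek receptor, had 1607 normalized counts in WT, 2168 in Smc3, 1281 in Npm1 and 2441 in Double, a departure of 0.46 ± 0.19 with an unadjusted p of 0.0181. Cd34, a marker of progenitors, had 3305, 5338, 1810 and 4591 (0.50 ± 0.29, unadjusted p = 0.0817). The stem cell list that holds both had a median of 0.07, with 16 of 23 above the sum and 7 below. Kit (-0.20 ± 0.19) and Gata2 (-0.21 ± 0.20) were among those below. Prss50, a serine protease best known from testis, had 819 in WT, 568 in Smc3, 525 in Npm1 and 189 in Double (-0.91 ± 0.35). Rplp2-ps1, a pseudogene of a ribosomal protein whose reads may come from its parent gene, had 473, 255, 284 and 292 (0.85 ± 0.25). None of the 7 genes given here with group levels passed the adjusted threshold of the z test on the DESeq2 fold changes.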
